A study of Arabidopsis thaliana with 9 samples.

Results

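The late enzymes of anthocyanin and flavonol synthesis were followed in seedlings of Arabidopsis thaliana with a changed subunit of FACT, a histone chaperone made of SSRP1 and SPT16 that assists RNA polymerase II on chromatin. The set holds 10 genes, DFR and the glycosyl- and acyltransferases that decorate anthocyanins and flavonols. They were chosen by name, and every probe set whose only annotated gene is one of them was taken, which gave 12 of the 28501 probe sets on the array. The groups were ssrp1-2, spt16-1 and wild type, all in the Col-0 background, with 3 arrays each, named as biological replicates in the labels. Each array carried RNA from a pool of plants, about 100 mg of the aerial parts of seedlings aged 10 days, grown on 0.5 MS plates under standard conditions. Light was recorded as 100 umol for all samples. The labels name the alleles without saying how they alter SSRP1 or SPT16, and no probe set named for either gene was used, so the genotypes were not checked here. A change in a pooled sample can come from fewer cells that hold a transcript or from less transcript per cell, and these cannot be told apart.

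Anthocyanins are the red and purple pigments that accumulate in the vacuoles of seedlings, most of all under strong light, cold, sugar or nutrient stress. Flavonols are colourless relatives that absorb ultraviolet light. Both arise from dihydroflavonols. DFR reduces dihydroflavonols and so opens the branch to anthocyanins, while flavonol synthase takes the same substrates into the flavonol branch. Finished molecules of both branches carry sugars, and those of the anthocyanin branch also carry acyl groups, which are added by the transferases described here. In Arabidopsis the late anthocyanin genes are known to be switched on together by a complex of MYB, bHLH and WD-repeat proteins, and the early genes that serve both branches by a separate group of MYB factors.

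All values are log2 expression values, in which a difference of 1 is a doubling. They come from RMA, which scales the arrays to a common distribution. The array medians lay between 4.95 and 4.98, and over all probe sets r was 0.992 to 0.994 within a genotype and 0.989 to 0.992 between genotypes. Probe sets whose mean was below 3.13 form the lowest 25%, and values near that level were not shown to be above background. A gene is called measured here where a probe set names it alone. Of the 28501 probe sets 16722 name 1 gene, so a gene that is not called measured may still have probes on the array. The labelled tissue could be checked with few markers: of 15 genes of green tissue 1 was measured, RCA, the activase of Rubisco, at 12.2 to 12.4 over all arrays. Of 10 root genes 3 were measured, and PYK10 was high at 10.8 to 10.9 in ssrp1-2, 11.0 to 11.5 in spt16-1 and 11.2 to 11.3 in wild type, while EXP7 and LBD16 stayed at or below 3.62 on all arrays. Of 6 genes of trichomes and epidermis TRY was measured. It stood at 4.40 to 5.18 in ssrp1-2, 4.45 to 4.70 in spt16-1 and 5.14 to 5.57 in wild type, and it passed in neither mutant (adjusted p = 0.334 and 0.117 by limma). The part of TRY-expressing cells in the results below was not tested. Of 4 seed coat genes BAN was measured, at 2.31 to 2.95.

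Of the 10 genes, 8 were lower in ssrp1-2 and 6 in spt16-1 than in wild type, and none was higher, at an adjusted p under 0.05 by limma over all probe sets. Across the whole array 0.839% of probe sets were lower in ssrp1-2 and 0.807% in spt16-1 by the same rule, and 2.58% and 2.02% passed in either direction. The counts of genes take the brighter probe sets of AT1G06000 and UGT73C6. With their dimmer ones 6 genes were lower in ssrp1-2 and 5 in spt16-1. The median log2 fold change of the 10 genes was -0.82 in ssrp1-2 and -0.79 in spt16-1, beside -0.00 and -0.01 over all probe sets. The 6 genes of the anthocyanin branch, DFR and 5 transferases, had the larger measured changes, with medians of -1.32 and -0.96 against -0.31 and -0.26 for the 3 transferases of flavonols alone. Of these 3, UGT78D1 lies within or near the lowest 25% of probe sets, where a change can be understated. AT1G06000 and UGT73C6 have probe sets whose strand is not given. DFR is counted with anthocyanins although its product also feeds proanthocyanidins, the tannins of the seed coat. Both mutants were compared with the same 3 wild-type arrays, so their values are not independent of each other. The genes were chosen with earlier results of these arrays known.

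**Figure D1:**
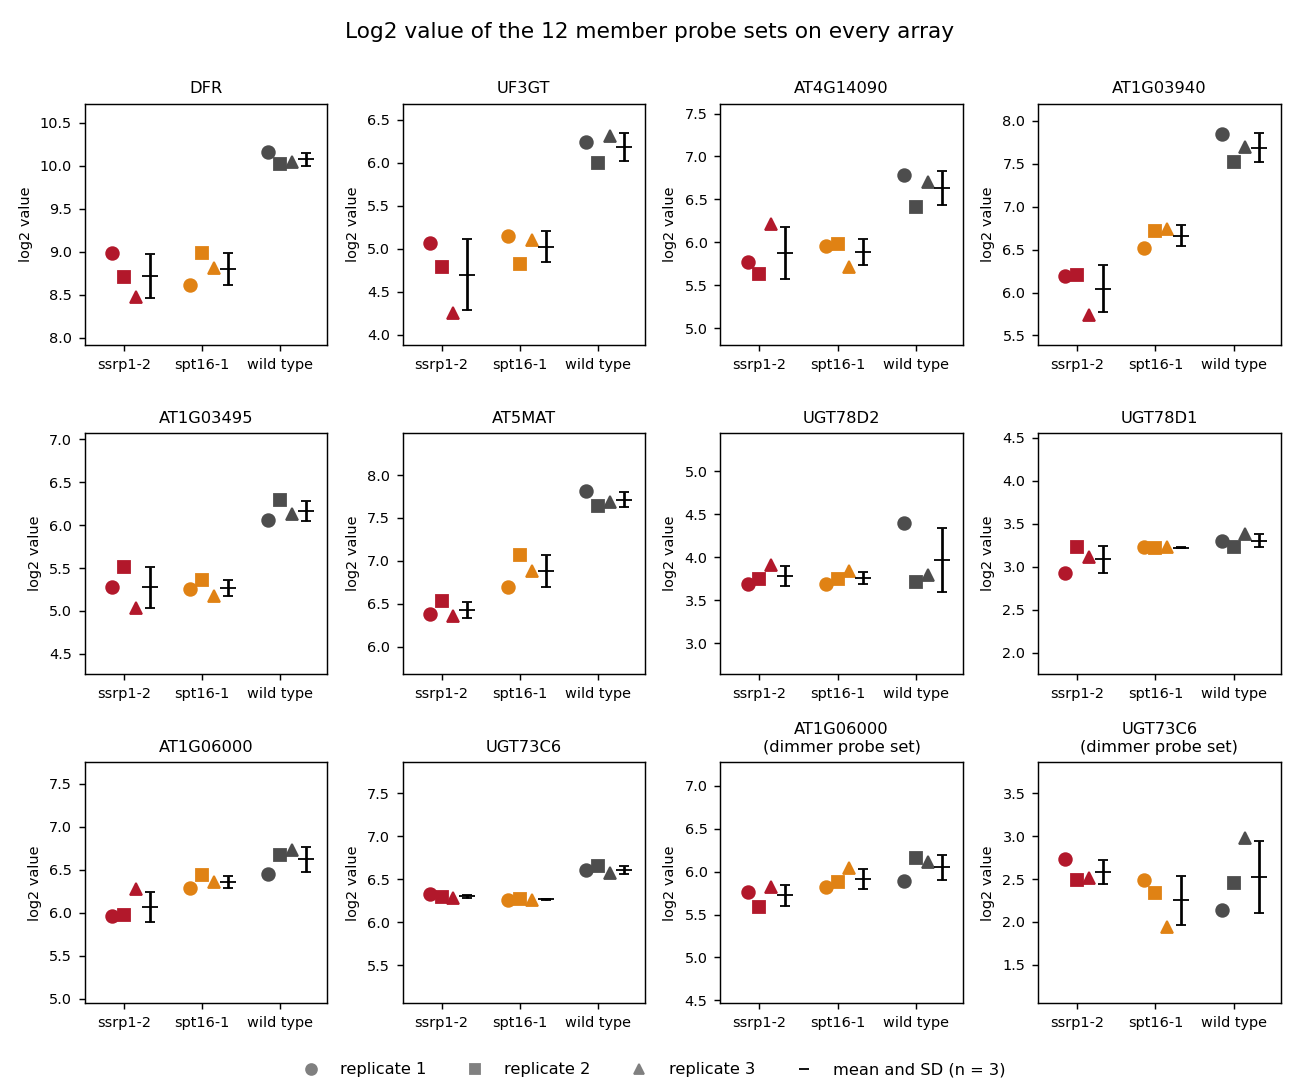
Log2 value (y axis) of the 12 probe sets on each array, by genotype (x axis); symbols give the replicate, and the black bars the mean and SD of 3 arrays. All panels span the same number of log2 units. In the panels of DFR, UF3GT, AT4G14090, AT1G03940, AT1G03495 and AT5MAT all mutant arrays lie below all wild-type arrays; UGT78D2, UGT78D1 and both panels of the dimmer probe sets include overlapping groups.

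DFR encodes dihydroflavonol reductase, the entry into the anthocyanin branch. It measured 8.99, 8.71 and 8.48 in ssrp1-2, 8.61, 8.99 and 8.82 in spt16-1, and 10.16, 10.02 and 10.05 in wild type. The lowest wild-type array was thus above the highest array of either mutant, and the mutants overlapped each other. DFR was 2.56-fold lower in ssrp1-2 (log2 fold change -1.35, 95% interval -1.67 to -1.04, adjusted p = 0.00138) and 2.41-fold lower in spt16-1 (-1.27, interval -1.59 to -0.96, adjusted p = 0.00224).

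UF3GT, also called UGT79B1, adds xylose to the glucose of anthocyanins. It measured 5.06, 4.78 and 4.25 in ssrp1-2, 5.15, 4.83 and 5.10 in spt16-1, and 6.24, 6.0 and 6.32 in wild type. Replicate 3 of ssrp1-2 was the lowest array, and no mutant array reached the wild-type range. UF3GT was 2.80-fold lower in ssrp1-2 (interval of the log2 fold change -1.93 to -1.05, adjusted p = 0.00520) and 2.23-fold lower in spt16-1 (-1.60 to -0.72, adjusted p = 0.0202). The spt16-1 call was lost without any 1 of the 3 spt16-1 arrays and without wild-type replicate 1 or 3, with an adjusted p of up to 0.0856. The unmoderated test lost it too (adjusted p = 0.0899).

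AT4G14090, which encodes the glucosyltransferase UGT75C1, puts glucose on the fifth position of anthocyanins. Its values were 5.78, 5.64 and 6.21 in ssrp1-2, 5.96, 5.99 and 5.71 in spt16-1, and 6.78, 6.42 and 6.71 in wild type. Both mutants lay below wild type without overlap, and replicate 3 of ssrp1-2 came closest to the wild-type range. The log2 fold change was -0.76 in ssrp1-2 (interval -1.13 to -0.39, adjusted p = 0.0483) and -0.75 in spt16-1 (-1.11 to -0.38, adjusted p = 0.0588), so the threshold separated almost equal changes. The ssrp1-2 call was lost on leaving out any array except ssrp1-2 replicate 3, when the adjusted p reached 0.154, and without that replicate the adjusted p was 0.0214. In spt16-1 the adjusted p ran from 0.0303 to 0.185 as single arrays were left out, and fell under 0.05 without ssrp1-2 replicate 3, whose spread enters the shared error. It was also under 0.05 with the intensity trend, median centring and the filter on the lowest 25% of probe sets (0.0223 with the trend). In the other settings it stayed above 0.05, up to 0.162 with the unmoderated test.

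The next group attaches acyl groups to these sugars. AT1G03940 and AT1G03495 encode acyltransferases that place coumaroyl groups on anthocyanins, and AT5MAT encodes the malonyltransferase that acts on the glucose put in place by UGT75C1. AT1G03940 measured 6.20, 6.21 and 5.73 in ssrp1-2, 6.52, 6.72 and 6.74 in spt16-1, and 7.85, 7.51 and 7.70 in wild type. The 3 genotypes did not overlap, with ssrp1-2 lowest and wild type highest. The gene was 3.12-fold lower in ssrp1-2 (adjusted p = 6.76e-04), the largest decrease among the 10 genes, and 2.04-fold lower in spt16-1 (adjusted p = 0.00888).

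AT5MAT showed the same order, at 6.38, 6.53 and 6.36 in ssrp1-2, 6.70, 7.07 and 6.88 in spt16-1, and 7.81, 7.64 and 7.68 in wild type. It was 2.44-fold lower in ssrp1-2 (log2 fold change -1.29, interval -1.52 to -1.05, adjusted p = 4.86e-04) and 1.78-fold lower in spt16-1 (-0.83, interval -1.07 to -0.59, adjusted p = 0.00500). AT1G03495 measured 5.27, 5.52 and 5.04 in ssrp1-2, 5.25, 5.37 and 5.18 in spt16-1, and 6.06, 6.29 and 6.13 in wild type. Here the mutants lay together, 1.85-fold lower in ssrp1-2 (adjusted p = 0.00703) and 1.86-fold lower in spt16-1 (adjusted p = 0.00807). AT1G03940 and AT1G03495 are related genes on the same chromosome with 60 annotated genes between them, and probes that bind both transcripts would draw their values together.

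**Figure D2:**
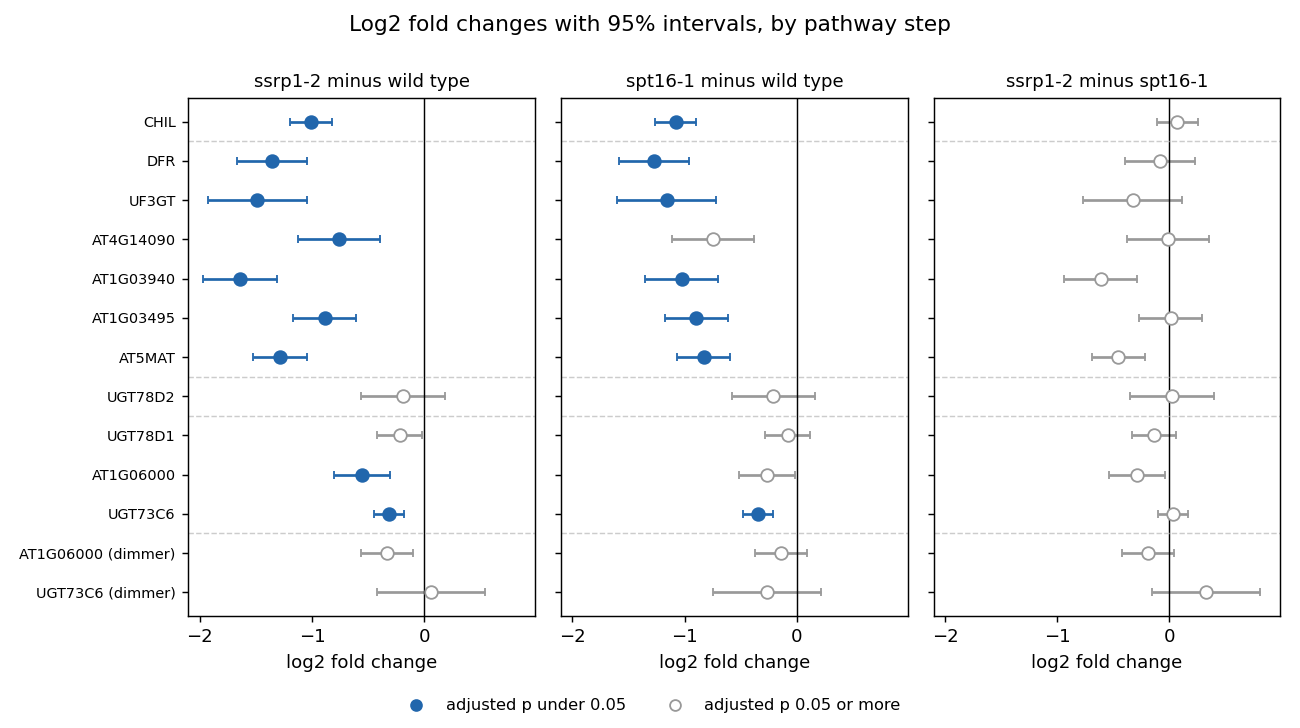
Log2 fold change (x axis) of each gene (y axis) in the 3 comparisons, with 95% intervals from the limma fit; filled blue points have an adjusted p under 0.05 and open grey points do not. From top to bottom, dashed lines part the early gene CHIL, the 6 anthocyanin genes, UGT78D2, the 3 flavonol genes, and the dimmer probe sets of AT1G06000 and UGT73C6. The anthocyanin genes lie between -1.64 and -0.75 in both mutants, and no gene passed between ssrp1-2 and spt16-1.

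UGT78D2 serves both branches, since it glucosylates flavonols and anthocyanidins at the third position. Its probe set read 3.69, 3.75 and 3.91 in ssrp1-2, 3.69, 3.75 and 3.84 in spt16-1, and 4.40, 3.72 and 3.80 in wild type. Wild-type replicate 1 stood apart, and the other 2 wild-type arrays lay within the range of the mutants. The log2 fold changes were -0.19 (interval -0.56 to 0.18, adjusted p = 0.660) in ssrp1-2 and -0.21 (-0.58 to 0.16, adjusted p = 0.671) in spt16-1. Without wild-type replicate 1 they were 0.03 and 0.00. A decrease of the size seen in DFR lies outside both intervals, but a probe set this close to the lowest 25% can understate a change. The value 3.75 also recurred in both mutants. These values thus cannot show that UGT78D2 changed less than DFR.

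On the flavonol side the differences were smaller. UGT78D1 adds rhamnose to flavonols at the third position. It read 2.92, 3.23 and 3.11 in ssrp1-2, 3.23, 3.21 and 3.23 in spt16-1, and 3.30, 3.23 and 3.38 in wild type, all within or near the lowest 25% of probe sets. The groups overlapped, and the log2 fold changes of -0.22 and -0.08 did not pass (adjusted p = 0.299 and 0.772). An identical value, 3.23, recurred in all 3 genotypes, so these values cannot show that UGT78D1 stayed the same or changed little.

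AT1G06000, which encodes UGT89C1 and adds rhamnose at the seventh position of flavonols, has 2 probe sets. The brighter one read 5.96, 5.97 and 6.27 in ssrp1-2, 6.29, 6.43 and 6.35 in spt16-1, and 6.45, 6.67 and 6.73 in wild type. It was lower in ssrp1-2 (log2 fold change -0.55, interval -0.80 to -0.30, adjusted p = 0.0364), and in spt16-1 the value was -0.26 (adjusted p = 0.368). The dimmer one had -0.33 (adjusted p = 0.174) and -0.14 (adjusted p = 0.643), the same direction at a smaller size. In the numbering of the probe sets these too stand in different runs, the brighter one between AT1G05970 and AT1G06050 and the dimmer one between AT1G05930 and AT1G06010. The strand that either one reads is not given, so the call rests on the annotation of the brighter one. The ssrp1-2 call was lost without wild-type replicate 2 or 3, ssrp1-2 replicate 1 or 2, or any spt16-1 array, and the adjusted p then reached 0.131.

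UGT73C6 adds glucose at the same seventh position, and its 2 probe sets disagreed. The brighter one read 6.32, 6.29 and 6.28 in ssrp1-2, 6.26, 6.27 and 6.26 in spt16-1, and 6.60, 6.66 and 6.57 in wild type. These are narrow groups that do not overlap, and the probe set was lower by limma in ssrp1-2 (-0.31, adjusted p = 0.0299) and in spt16-1 (-0.35, adjusted p = 0.0214). The dimmer one read 2.74, 2.49 and 2.51 in ssrp1-2, 2.49, 2.33 and 1.94 in spt16-1, and 2.14, 2.45 and 2.97 in wild type, below the lowest 25% mark, and its changes of 0.06 and -0.27 did not pass (adjusted p = 0.931 and 0.675). In the numbering of the probe sets the dimmer one follows directly on those of AT2G36770 and AT2G36780, genes close by in the UGT73C cluster, and the brighter one stands in another run, between AT2G36724 and AT2G36815. The deposited values do not show which of them reads the UGT73C6 transcript and not the opposite strand, so the call for this gene rests on the annotation of the brighter one. It was also lost in ssrp1-2 without any array except spt16-1 replicate 3, reaching an adjusted p of 0.103, and in spt16-1 without any 1 of the 3 spt16-1 or 3 wild-type arrays (adjusted p up to 0.0818).

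Set side by side, 5 of the 8 calls in ssrp1-2 (DFR, UF3GT, AT1G03940, AT1G03495 and AT5MAT) and 4 of the 6 in spt16-1 (DFR, AT1G03940, AT1G03495 and AT5MAT) held in each of 18 other fits. These 18 left out each of the 9 arrays in turn or changed 1 setting of the fit. The share of all called probe sets that held in all 18 is not given. These counts therefore cannot be ranked against calls in general. The calls that did not hold were the 2 flavonol genes and AT4G14090 in ssrp1-2, and UF3GT and UGT73C6 in spt16-1. In each mutant 8 of the 10 genes had every array below every wild-type array, which was true of 8.18% of all probe sets in ssrp1-2 and 8.36% in spt16-1.

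**Figure D3:**
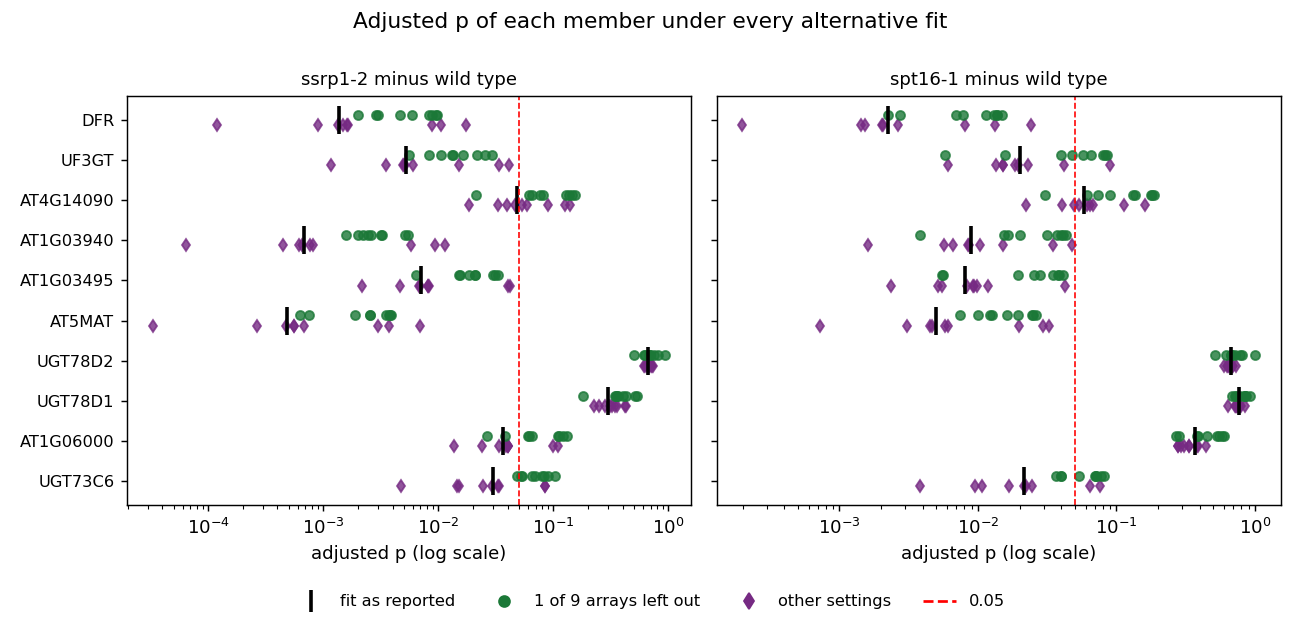
Adjusted p (x axis, log scale) of each gene (y axis) against wild type in ssrp1-2 (left) and spt16-1 (right); black bars give the reported fit, green points the 9 fits with 1 array left out, purple points the other settings, and the red line 0.05. DFR, AT1G03940, AT1G03495 and AT5MAT stay left of the line in every fit of both mutants, while UGT78D2 and UGT78D1 stay right of it.

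The branches were then compared within each array, which cancels any factor that raises or lowers an array as a whole. The mean log2 value of the 6 anthocyanin genes minus that of the 3 flavonol genes was 1.21, 1.07 and 0.79 in ssrp1-2, 1.11, 1.19 and 1.13 in spt16-1, and 2.03, 1.80 and 1.87 in wild type. No mutant array came near the wild-type range. The difference was smaller by 0.88 in ssrp1-2 and by 0.76 in spt16-1 than in wild type. The mean of the anthocyanin genes thus fell further below wild type than the mean of the flavonol genes in every mutant array. This does not hold for every pair of genes. On ssrp1-2 replicate 2, AT1G03495 and AT1G06000 both lay at -0.65 from the wild-type mean. The flavonol mean includes AT1G06000 and UGT73C6, whose probe sets have no strand given. No p is given for these means over chosen genes; with 3 arrays against 3 an exact permutation test cannot give a p below 0.1. UGT78D1 is the dimmest of the 3 flavonol genes, and the part of low signal in the branch difference was not tested. Without UGT78D1 the difference was smaller by 0.80 in ssrp1-2 and by 0.68 in spt16-1.

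Within the anthocyanin branch the steps did not all move by the same amount. AT1G03940 minus AT1G03495 was 0.92, 0.69 and 0.69 in ssrp1-2, 1.27, 1.35 and 1.56 in spt16-1, and 1.79, 1.22 and 1.57 in wild type. The related acyltransferases thus fell unequally in ssrp1-2, by 0.75 more for AT1G03940, and the ssrp1-2 arrays did not overlap either other genotype, while spt16-1 and wild type overlapped. DFR minus AT5MAT was 2.60, 2.17 and 2.12 in ssrp1-2, 1.92, 1.92 and 1.94 in spt16-1, and 2.35, 2.38 and 2.36 in wild type. DFR therefore fell further than AT5MAT in all spt16-1 arrays, by 0.44 on average, whereas the ssrp1-2 arrays lay on both sides of wild type. These pairs were picked after their values were seen, and their differences were not tested.

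**Figure D4:**
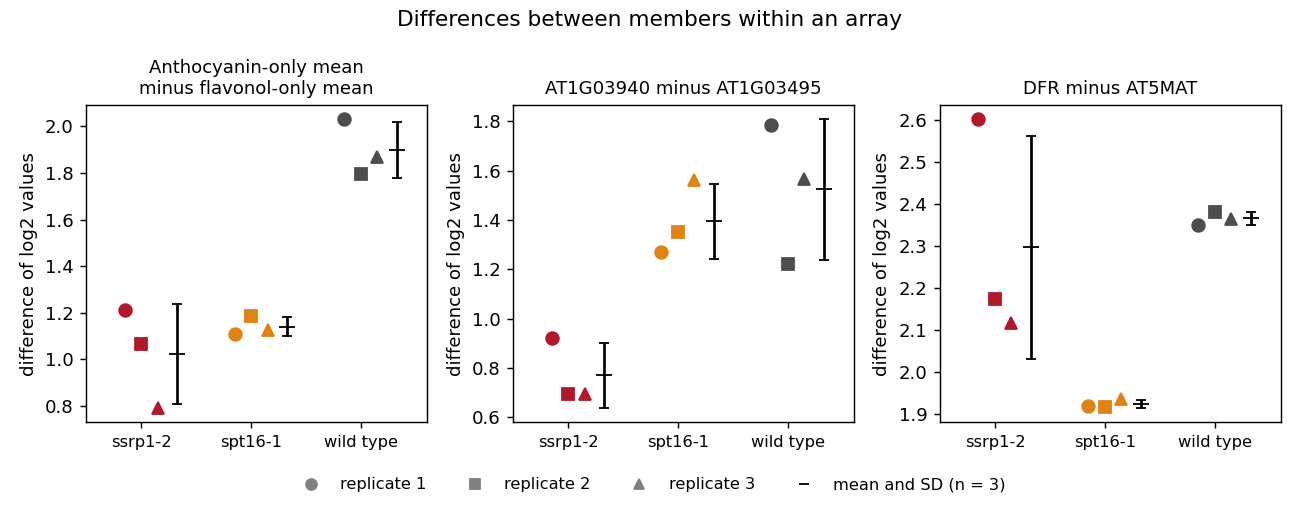
Difference of log2 values within each array (y axis) by genotype (x axis) for the branch means, the related acyltransferases and DFR against AT5MAT; symbols give the replicate and black bars the mean and SD of 3 arrays. The branch difference is 1.90 on average in wild type and at most 1.21 in the mutants. The y axes do not start at 0.

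The order of the arrays within a genotype was also compared over the 6 anthocyanin genes, without a test. Replicate 3 of ssrp1-2 had the lowest value of its group for 5 of the 6 anthocyanin genes and the highest for AT4G14090. Its mean distance from wild type over the 6 genes was -1.40, against -1.13 and -1.18 for replicates 1 and 2. In spt16-1 the 3 arrays lay closer, at -1.04, -0.92 and -1.0, and replicate 2 was the highest for DFR, AT1G03495, AT5MAT and AT4G14090 but the lowest for UF3GT. Wild-type replicate 2 was the lowest of its group for 5 of the 6 genes, with a mean distance of -0.09 over the 6, and the highest for AT1G03495.

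**Figure D5:**
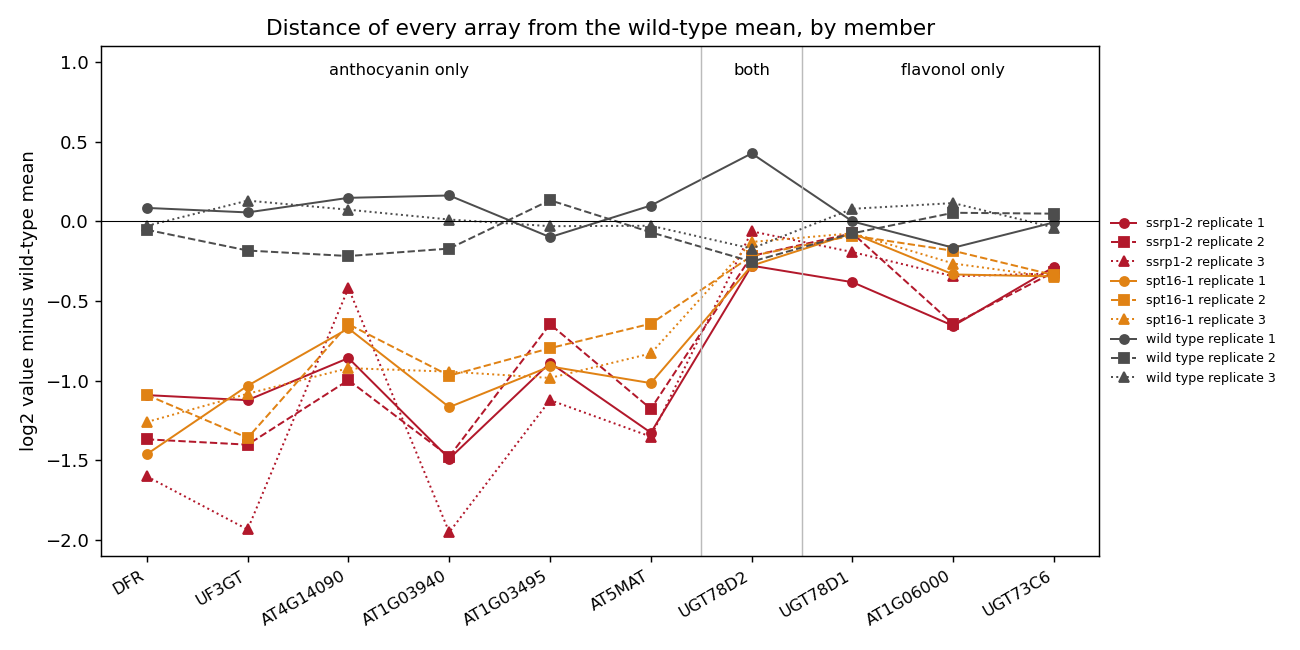
Log2 value of each array minus the wild-type mean (y axis) for the 10 genes (x axis), with 1 line per array; vertical lines part the anthocyanin genes, UGT78D2 and the flavonol genes. All mutant lines lie below the wild-type lines across the anthocyanin genes, and ssrp1-2 replicate 3 is the lowest line for 5 of the 6. At UGT78D2 and UGT78D1 mutant and wild-type lines overlap, with wild-type replicate 1 standing apart at UGT78D2.

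Tested directly, ssrp1-2 and spt16-1 differed in none of the 10 genes by limma, where 0.835% of all probe sets passed, with 0.316% of all lower in ssrp1-2. At an unadjusted p under 0.05 there were 3 of the 10 genes, where 12% of all probe sets passed. AT1G03940 had the largest difference, 1.53-fold lower in ssrp1-2 (log2 fold change -0.61, interval -0.94 to -0.29, adjusted p = 0.121), followed by AT5MAT (-0.46, interval -0.69 to -0.22, adjusted p = 0.114) and AT1G06000 (-0.29, interval -0.54 to -0.04, adjusted p = 0.341). In these 3 every ssrp1-2 array was below every spt16-1 array, as in 7.16% of all probe sets. The brighter UGT73C6 probe set went the other way without overlap, at 6.28 to 6.32 in ssrp1-2 and 6.26 to 6.27 in spt16-1. Its log2 fold change was 0.03 (adjusted p = 0.868 by limma). With an intensity trend in the variance AT1G03940 and AT5MAT passed (adjusted p = 0.0489 and 0.0421). For DFR the difference was -0.08 with an interval of -0.40 to 0.23, and for AT1G03495 0.01 with -0.27 to 0.29, so that a difference of 2-fold between the mutants lies outside both intervals. For UF3GT the interval of -0.77 to 0.11 is wider.

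Of 46 other genes of phenylpropanoid, flavonoid, flavonol and proanthocyanidin synthesis, transport and regulation that were listed, 3 had a named probe set; none of the 20 regulators or of the 8 genes of the general phenylpropanoid pathway had one. The measured ones were CHIL, UGT78D3 and BAN. CHIL encodes a protein related to chalcone isomerase that has no such activity itself and raises flavonoid output at the start of the pathway, before the branches part. It read 6.73, 6.62 and 6.60 in ssrp1-2, 6.63, 6.43 and 6.68 in spt16-1, and 7.67, 7.62 and 7.69 in wild type. All mutant arrays lay well below wild type, and CHIL was 2.01-fold lower in ssrp1-2 (log2 fold change -1.01, interval -1.19 to -0.82, adjusted p = 4.65e-04) and 2.11-fold lower in spt16-1 (-1.08, interval -1.26 to -0.89, adjusted p = 3.63e-04). Both calls held in all 18 other fits, with an adjusted p of at most 0.00414 in ssrp1-2 and 0.00574 in spt16-1. The direct difference between the mutants was 0.07 (interval -0.11 to 0.26, adjusted p = 0.784).

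UGT78D3, which adds arabinose to flavonols and has 1 annotated gene between it and UGT78D2, read 3.43 to 3.55 in ssrp1-2, 3.23 to 3.73 in spt16-1 and 3.52 on all 3 wild-type arrays. BAN, which encodes the anthocyanidin reductase of the seed coat, read 2.60 on all ssrp1-2 arrays, 2.31 to 2.95 in spt16-1 and 2.60 to 2.89 in wild type. Neither passed in any comparison (adjusted p of at least 0.822 for BAN and 0.956 for UGT78D3). Repeats of 1 value on several arrays occur at these low levels, so these values cannot show that either gene stayed the same.

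The profile of DFR over the 9 arrays was compared with that of each of 16267 other genes that had 1 named probe set, by the mean absolute difference of the centred log2 values, a measure of likeness that is given here without a test. The 5 genes most like DFR were AT1G52000 (0.15), AT1G24580 (0.17), UF3GT (0.17), CHIL (0.19) and AT5MAT (0.20), so that 3 of the 5 belong to flavonoid synthesis. AT1G03940 ranked 6, AT1G03495 ranked 7 and AT4G14090 ranked 20, which places all 5 other anthocyanin genes of the set within the first 20. UGT78D2 ranked 1226 and UGT78D1 ranked 2757, both with signal close to background. AT1G06000 and UGT73C6 have more than 1 named probe set and were not ranked. AT1G24580 averaged 4.30 in ssrp1-2, 4.12 in spt16-1 and 5.40 in wild type, and was lower in ssrp1-2 (-1.11, adjusted p = 0.00102) and in spt16-1 (-1.28, adjusted p = 5.61e-04). AT1G52000 averaged 6.48, 6.90 and 8.08 in the same order, and was lower in both mutants (-1.60 and -1.18, adjusted p = 2.33e-04 and 0.00134). Since all 9 arrays fall into 3 genotypes, this measure mostly compares the sizes of the genotype differences.

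Glycosyltransferases of the same family outside the set were also counted. Among 48 other genes named UGT, with 52 probe sets, 0 were lower in ssrp1-2 and 0 in spt16-1 by limma, and the median log2 fold changes were 0.03 and 0.08. Over all probe sets 0.839% were lower in ssrp1-2 and 0.807% in spt16-1, so counts of 0 among 52 probe sets are near that share. Of these UGT genes only UGT72E1, a glucosyltransferase of lignin precursors, passed, and it was higher in ssrp1-2 (0.53, adjusted p = 0.0441). In that comparison 2.58% of all probe sets passed in either direction.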

How the data were processed

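Transcripts were measured on 9 single-colour Affymetrix arrays labelled with biotin from 200 ng of total RNA, per the labels. The deposited values are log2 values, 1 per probe set and array, made by the authors with RMA, for which the submitters' processing notes name Affymetrix Expression Console 1.3; the sources used here name no genome build. RMA makes array distributions alike, so a change in total RNA would not show. No further scaling was applied. GEO's platform annotation gave 1 gene for 16722 probe sets; 1 probe set that names AT4G14090 together with another gene was left out. Names came from RefSeq (TAIR10.1). For AT1G06000 and UGT73C6 the brighter probe set counts for the gene.

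Two-sided tests used lmFit and eBayes of limma 3.58.1 in R 4.3.3, fitted once to the 9 arrays with 6 residual degrees of freedom and Benjamini-Hochberg adjustment over all 28501 probe sets. Errors are SDs over 3 arrays, and the number of arrays limits the precision. The labels do not say whether pools came from separate sowings, and the p-values reflect only how these pools vary. The test was checked on simulated data. The outcome is not reported here, and no call rests on it. The alternatives were an intensity trend, robust moderation, an unmoderated test, a replicate block, array weights, median centring, quantile normalization, a filter on the lowest 25%, fits of 2 genotypes, stricter thresholds, the dimmer probe sets and leaving out each array. All 10 members, the measured pathway genes, the 5 genes most like DFR and called UGT relatives are named; the uncalled UGT relatives enter only as counts and medians. Members and lists were chosen with earlier results of these data known.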

Additional observations from a re-analysis of the deposited data

How the results depend on the processing

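The number of the 10 genes lower in ssrp1-2, 8 in all, was 5 in the fit of 2 genotypes alone and at an adjusted p under 0.01, and 4 with a 2-fold minimum; leaving out single arrays gave 5 to 7. It was 5 without ssrp1-2 replicate 1 or 2, spt16-1 replicate 1 or 2 or wild-type replicate 2 or 3. In spt16-1 the 6 became 3 with a 2-fold minimum and 4 to 7 without single arrays. Between the mutants the intensity trend gave 2, and every fit without 1 array gave 0. With the dimmer probe sets of AT1G06000 and UGT73C6 the counts were 6 in ssrp1-2 and 5 in spt16-1. The branch difference in ssrp1-2, -0.88, was -1.07 with these dimmer probe sets. The replicate numbers gave no sign of pairing: deviations of arrays with the same number correlated at -0.14 to 0.07, and 2 of 9 arrays were closest to their own number. The replicate block left 6 genes in ssrp1-2, 5 in spt16-1 and 0 between the mutants. Over all probe sets, 2.58% passed in ssrp1-2, 2.02% in spt16-1 and 0.835% between the mutants, against 4.18%, 3.59% and 1.74% with the intensity trend, 4.45%, 3.48% and 1.52% with the lowest 25% left out, 1.69%, 1.53% and 0.432% unmoderated, 1.76%, 1.33% and 0.411% with the block, and 1.4%, 0.951% and 0.281% in fits of 2 genotypes, 1.01%, 0.782% and 0.235% at an adjusted p under 0.01, and 0.484%, 0.368% and 0.161% with a 2-fold minimum. Without single arrays these shares were 1.42% to 2.19%, 1.03% to 1.68% and 0.319% to 0.586%. Differences that changed sign had not passed in any fit. Array weights gave 0.0056 for UGT78D3 in spt16-1, and -0.026 for UGT78D3 and -0.0020 for AT1G03495 between the mutants. Without single arrays, UGT78D2 ran from -0.31 to 0.026, UGT78D3 from -0.045 to 0.014 and the dimmer UGT73C6 probe set from -0.13 to 0.28 in ssrp1-2, and UGT78D2 from -0.34 to 0.0036, UGT78D3 from -0.15 to 0.11 and BAN from -0.21 to 0.10 in spt16-1. Between the mutants DFR ran from -0.21 to 0.041, AT1G03495 from -0.11 to 0.13, AT4G14090 from -0.18 to 0.11, UGT78D2 from -0.039 to 0.068, BAN from -0.20 to 0.12, CHIL from -0.0031 to 0.12 and UGT78D3 from -0.13 to 0.13. The cause of these shifts was not tested. Signal close to background limits UGT78D1, UGT78D2, UGT78D3, BAN and the dimmer UGT73C6 probe set.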
